A study of Mus musculus with 5 samples.

Results

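Inguinal white adipose tissue of T3-treated mice lacking thyroid hormone receptor β in adipocytes was set against the same fat depot of floxed mice given vehicle, gene by gene. T3 (triiodothyronine) is the active thyroid hormone. The comparison covers the 10762 of 53700 genes in the table that reached 5 FPKM (fragments scaled to transcript length and library size) in the higher of the 2 libraries. A gene is called higher or lower where the log2 ratio of FPKM, with a pseudocount of 1 added to both values, was 1 or more in size, which is 2-fold on that scale. The series holds 5 libraries of mouse inguinal fat, and 3 of them share this table. Floxed mice, the control genotype, received PBS as vehicle in one group, named Floxed (Veh), and T3 in another, named Floxed (T3). Mice named ATRβKO received T3 and form the third group, ATRβKO (T3). All 3 groups ate normal food, had 7 daily injections and gave tissue 24 hours after the last. Each group is 1 library made from the pooled fat of 3 mice, so there is no spread between animals, no test and no p-value, and every statement compares these libraries. No group combines the knockout with vehicle, so hormone and genotype differ together between the libraries compared and cannot be told apart. The dose of T3, the promoter driving Cre, and the age and sex of the mice are not given in the sources used here. The Y-linked gene Eif2s3y was at 57.4 FPKM in Floxed (Veh), 48.9 in Floxed (T3) and 46.9 in ATRβKO (T3). Ddx3y, also Y-linked, was at 29.42, 27.66 and 30.03 FPKM in the same order. All 3 libraries thus held Y-linked transcripts, and whether every pooled mouse was male was not tested. The values of Floxed (T3) are printed beside the others as a description, since both T3 libraries are set against the same vehicle library.

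Thyroid hormone acts through nuclear receptors, chiefly TRα and TRβ, which sit on DNA with a retinoid X receptor and switch nearby genes when T3 binds. In white fat the hormone is known for raising fatty acid synthesis and for the appearance of beige adipocytes, fat cells that hold UCP1, a mitochondrial proton carrier that turns fuel into heat. Injected T3 also reaches every other organ and every other cell of the fat, where receptors are not deleted in an adipocyte-specific knockout.

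The genes at the ends of the comparison that have a promoter in the RefSeq table (GRCm38.p6) are 20 of 30, and 3 promoters are shown for the families described most fully below. Each runs from 250 bases before to 50 bases after the annotated start, on the strand of the gene. The Ucp1 promoter, chr8:83290098-83290397 on the plus strand, is shown because Ucp1 led the beige genes that lay below vehicle. Its capitals mark the single nuclear receptor half-site AGGTCA found on either strand, which begins 14 bases before the start. The promoters of Mup18, chr4:61674045-61674344, and Mup15, chr4:61439655-61439954, both on the minus strand, are shown because they belong to near-identical genes that were higher together. Compared end to end over the window, Mup15 is the promoter most like that of Mup18. Capitals in Mup15 mark the 13 bases at which it differs from Mup18, and with inserted and deleted bases the promoters are 93.5% identical.
Ucp1: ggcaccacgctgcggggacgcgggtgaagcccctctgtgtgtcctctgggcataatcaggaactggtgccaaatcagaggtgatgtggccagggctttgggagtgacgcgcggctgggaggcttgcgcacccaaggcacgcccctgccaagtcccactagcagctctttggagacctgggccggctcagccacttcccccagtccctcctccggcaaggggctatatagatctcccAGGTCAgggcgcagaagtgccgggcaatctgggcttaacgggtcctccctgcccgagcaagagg
Mup18: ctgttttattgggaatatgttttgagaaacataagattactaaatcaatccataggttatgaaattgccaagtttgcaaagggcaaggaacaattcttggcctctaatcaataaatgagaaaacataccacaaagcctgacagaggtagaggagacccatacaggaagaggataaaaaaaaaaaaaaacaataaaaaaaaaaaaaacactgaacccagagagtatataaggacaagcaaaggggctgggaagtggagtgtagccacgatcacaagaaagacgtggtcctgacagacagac
Mup15: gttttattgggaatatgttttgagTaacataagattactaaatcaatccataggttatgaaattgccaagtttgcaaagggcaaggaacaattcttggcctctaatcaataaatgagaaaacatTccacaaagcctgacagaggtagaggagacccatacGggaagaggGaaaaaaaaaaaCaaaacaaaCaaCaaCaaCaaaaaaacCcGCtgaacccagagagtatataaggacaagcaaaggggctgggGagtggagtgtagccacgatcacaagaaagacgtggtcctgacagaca
The letters AGGTCA occur on either strand in 16.3% of the 32851 promoters in the table and in 0 of the 10 promoters of Mup genes among the 15 highest. The half-site AGAACA of the glucocorticoid receptor occurs in 18.97% of all promoters and in 1 of those 10, that of Mup3. The 10 Mup promoters share much of their sequence, so they are not 10 separate observations. These matches describe letters in the window and do not show binding.

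The libraries were close in nearly all genes. The median log2 ratio was -0.03 and the SD over genes 0.46, with the 5th percentile at -0.41 and the 95th at 0.42. By the 2-fold rule 127 genes, 1.18% of those compared, were higher in the library labelled ATRβKO (T3) and 99, or 0.92%, were lower. Most of these calls fell in a class of 919 clone-named and predicted genes, small RNAs, receptor segments, ribosomal proteins and pseudogenes, whose short or repeated transcripts FPKM measures poorly. That class held 93 of the higher and 74 of the lower calls, and 38 of the genes called higher were listed at 0 in vehicle. Among the other 9843 genes the SD was 0.27, 34 genes (0.345%) were higher and 25 (0.254%) were lower. These genes are the ones followed below. Of all 10762 genes compared 44.5% lay above 0, and the counts of each list below are to be read beside these shares. Depth was estimated from the step between low values of genes with 1 exon as 12900000 fragments for vehicle and 13600000 for each T3 library.

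**Figure D1:**
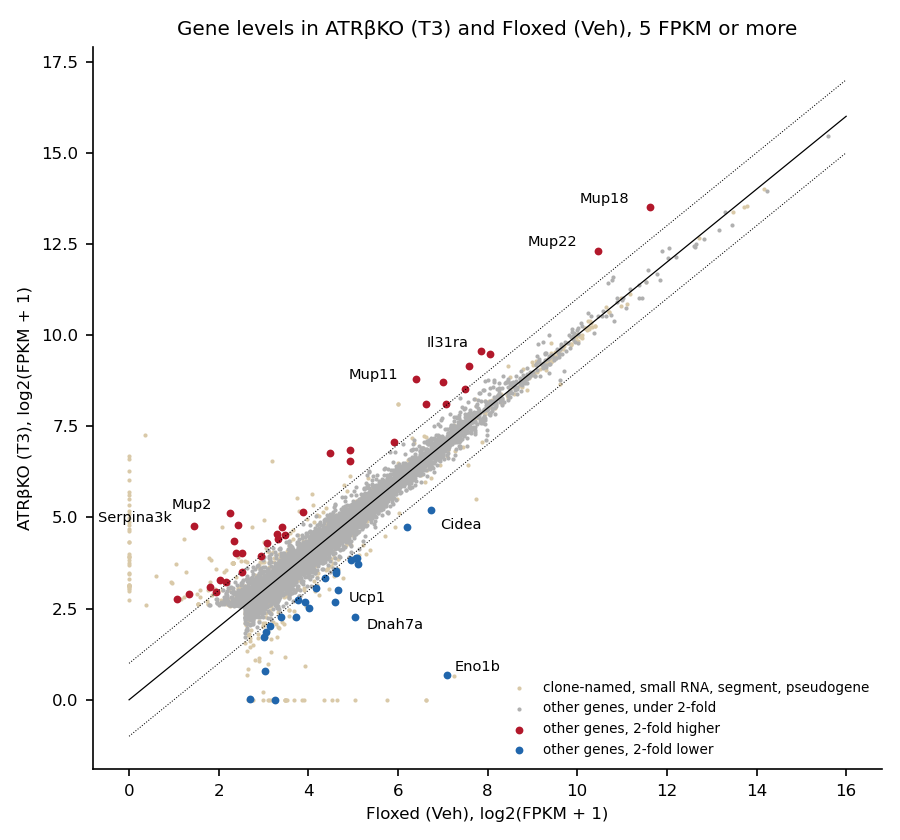
Level of each gene at 5 FPKM or more in the ATRβKO (T3) library (y axis) against Floxed (Veh) (x axis), both as log2(FPKM + 1), with 1 pooled library per group; the solid line marks equal levels and the dotted lines 2-fold. Red and blue points are the 34 higher and 25 lower genes outside the clone-named class, with Mup genes high on the right and Ucp1 and Cidea below the band.

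**Figure D2:**
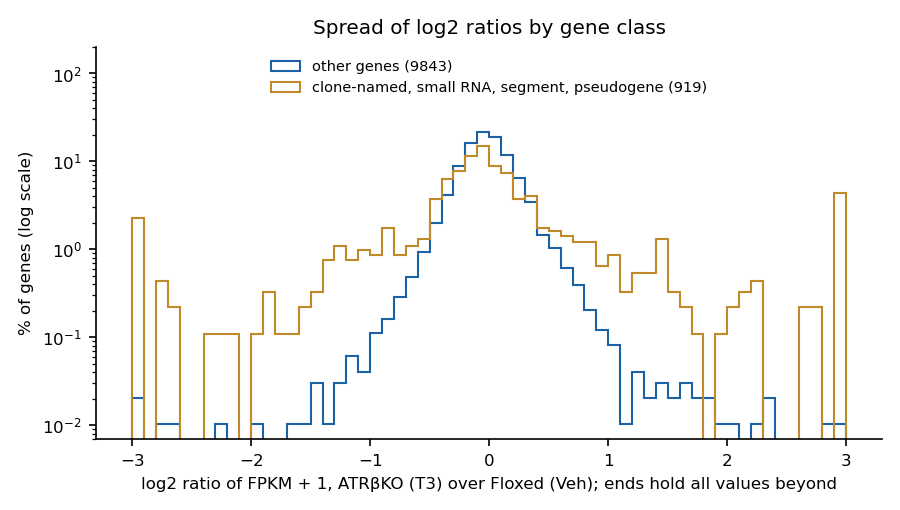
Percentage of genes (y axis, log scale) by log2 ratio of ATRβKO (T3) over Floxed (Veh) (x axis), for 919 clone-named, small RNA, segment, ribosomal protein and pseudogene entries and 9843 other genes, with all values beyond 3 placed in the end bins. The first class is spread far wider, with an SD of 1.31 against 0.27.

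Before the results, the label was checked against the targeted gene. Thrb (ENSMUSG00000021779), which encodes TRβ, was at 4.44 FPKM in Floxed (Veh), 4.43 in Floxed (T3) and 4.26 in ATRβKO (T3), so the 3 libraries were level. The sum over a gene cannot separate a shortened transcript from a full one, or the receptor of adipocytes from that of other cells, so it does not check the label, and the library is named by its label throughout. Thra, which encodes TRα, was at 50.4, 32.7 and 41.6 FPKM in the same order. The list of hormone receptors, corepressors, coactivators and transporters also held Thrsp and Nr1d1. Of its 13 genes at the floor 0 were called and 5 lay above 0, with a median log2 ratio of -0.05. The corepressor gene Ncor1 was at 54.9 FPKM in vehicle and 47.5 in ATRβKO (T3). Deiodinase genes were below the floor in all 3 libraries, with Dio2, which activates the hormone, at 0.24, 0.56 and 0.21 FPKM.

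All libraries held the defining genes of white fat. Adipoq, which encodes adiponectin, was at 1498 FPKM in vehicle, 781 in Floxed (T3) and 1482 in ATRβKO (T3). Of 26 adipocyte genes at the floor 1 was higher, Cebpb, 0 were lower and 10 lay above 0, with a median of -0.02 whose sign changed under 2 rescalings. Lep, the leptin gene, was at 232, 140 and 206 FPKM. Pparg, the master regulator of fat cell identity, was lower without reaching 2-fold, at 138 FPKM in vehicle, 136 in Floxed (T3) and 98.8 in ATRβKO (T3), a log2 ratio of -0.48. Cfd, which encodes adipsin, was at 11233, 4783 and 8279 FPKM, and Nnat, an imprinted gene of fat, at 829, 98.1 and 517. Skeletal muscle transcripts were also present in all 3 libraries. The 35 muscle genes summed to 3742 FPKM in vehicle and 3841 in ATRβKO (T3), against 902 in Floxed (T3). Of 20 mammary epithelium markers 1 reached the floor, Esr1, which fat also expresses, and the milk protein genes Csn2 and Wap were listed at 0 in all 3 libraries.

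Beige and thermogenic genes lay below untreated control fat. The 13 at the floor had log2 ratios under 0, with a median of -0.59, where 44.5% of all genes compared lay above 0 and the median was -0.03. The 2-fold rule called 3 of the 13 lower and 0 higher, where it called 0.254% of all genes outside the clone-named class lower. Fabp3, Ppara, Pank1 and Otop1 passed the floor through vehicle alone, so their direction was fixed by it, and the other 9 had a median of -0.59 as well. Of the 11 list members below the floor in both libraries 7 were lower and 4 were higher than in vehicle. The 13 genes had a median of 0.97 in Floxed (T3) against vehicle. The 3 called genes were Ucp1, Cidea and Cpt1b.

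Ucp1 (ENSMUSG00000031710), whose promoter is printed above, was at 24.3 FPKM in Floxed (Veh), 278 in Floxed (T3) and 7.13 in ATRβKO (T3). The knockout library was thus the lowest of the 3, 3.41-fold below vehicle, with a log2 ratio of -1.64. At the estimated depth these values stand for about 512 fragments in vehicle and 159 in the knockout library. Cidea, which encodes a lipid droplet protein of thermogenic fat, was at 106, 162 and 35.6 FPKM, 2.99-fold below vehicle. Cpt1b, the carnitine palmitoyltransferase of muscle and brown fat that admits long-chain fatty acids to mitochondria, was at 14.2, 36.2 and 5.42 FPKM, 2.61-fold below vehicle. Cpt1b is also a muscle gene. Of 30 muscle markers at the floor 18 lay above 0 and 12 below, and the part of muscle in the Cpt1b value was not tested. With a pseudocount of 5 the Cpt1b ratio was short of 2-fold, and those of Ucp1 and Cidea were not.

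Other members of the group were lower without passing the size rule. Plin5, which ties lipid droplets to mitochondria, was at 10.2 FPKM in vehicle, 15.8 in Floxed (T3) and 5.30 in ATRβKO (T3). Fabp3, a fatty acid carrier of oxidative tissue, was at 8.96, 24.9 and 4.70 FPKM, and Ppara, a nuclear receptor for fatty acid oxidation genes, at 5.15, 5.37 and 2.79. In these 3 genes, too, the knockout library was the lowest. Cox8b, a cytochrome oxidase subunit of brown fat and muscle, was at 254, 677 and 169 FPKM. Prdm16, which encodes a regulator of brown and beige fate, was at 9.61, 8.45 and 6.60 FPKM, so that it lay lower in both T3 libraries. Kcnk3, Pank1 and Otop1 had log2 ratios from -0.44 to -0.42. Adrb3, the adrenergic receptor of adipocytes, was at 167, 160 and 135 FPKM. Cox7a1, another subunit of brown fat and muscle, was at 55.2, 259 and 53.6 FPKM and so was level with vehicle. In bulk tissue fewer beige cells and less RNA per cell cannot be told apart. Ppargc1a, a coactivator of mitochondrial genes, and Elovl3, a fatty acid elongase of brown fat, stayed below 5 FPKM, at 2.39 and 0.36 FPKM in vehicle and 1.20 and 0.10 in ATRβKO (T3).

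**Figure D3:**
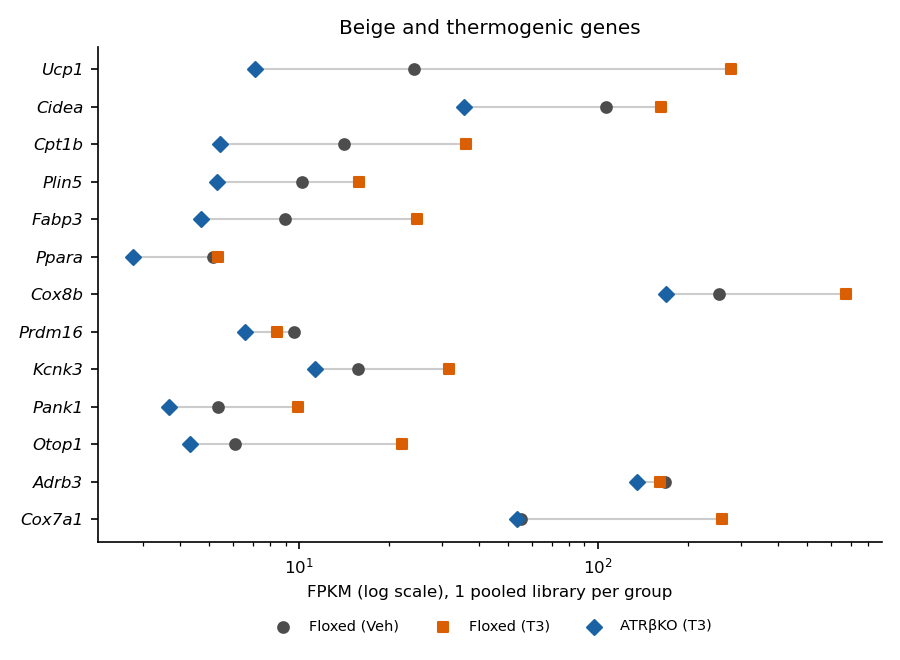
Level in FPKM (x axis, log scale) of the 13 beige and thermogenic genes at the floor (y axis, ordered by log2 ratio) in Floxed (Veh), Floxed (T3) and ATRβKO (T3), 1 pooled library each. The ATRβKO (T3) point lies left of the vehicle point in all 13 genes, by 3.41-fold for Ucp1 and least for Cox7a1.

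Fatty acid oxidation genes leaned the same way by a smaller amount. Of 23 at the floor 1, Cpt1b, was lower, 0 were higher and 3 lay above 0, with a median of -0.21. The acyl-CoA dehydrogenase genes Acadl and Acadm were at 210 and 237 FPKM in vehicle and 162 and 190 in ATRβKO (T3), with 289 and 311 in Floxed (T3). Cpt1a, the liver-type counterpart of Cpt1b, lay on the other side at 19.5 FPKM in vehicle, 17.5 in Floxed (T3) and 23.1 in ATRβKO (T3). Genes of pyruvate oxidation and the TCA cycle had a median of -0.11, with 0 of 34 called and 12 above 0. Nuclear genes of oxidative phosphorylation had a median of -0.04, with 0 of 40 called and 15 above 0. Transcripts of the mitochondrial genome summed to 106939 FPKM in vehicle, 151133 in Floxed (T3) and 92729 in ATRβKO (T3), and 3 of 15 lay above 0.

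One mitochondrial gene was called higher, and its neighbour lay on the other side. The cytochrome oxidase gene mt-Co3 was at 128, 302 and 420 FPKM, while the ATP synthase gene mt-Atp6, which borders it in the mitochondrial genome, was at 782, 958 and 436. Summed over both genes the values were 910, 1260 and 856 FPKM, a log2 ratio of -0.09. How reads were divided between them was not tested, so the mt-Co3 difference is uncertain.

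Lipogenic genes, a main target of T3 in fat, were near the vehicle level in the knockout library. Of 19 genes of de novo lipogenesis 0 were called and 13 lay above 0, with a median log2 ratio of 0.09, and the same genes had a median of 1.30 in Floxed (T3). Acly, which makes cytosolic acetyl-CoA from citrate, was at 350 FPKM in vehicle, 1389 in Floxed (T3) and 429 in ATRβKO (T3). Acaca, which commits acetyl-CoA to fatty acids, was at 189, 537 and 230 FPKM. Scd1, the main desaturase, was at 4216, 13306 and 5382 FPKM. Me1, the malic enzyme that supplies NADPH, was at 349, 1468 and 445 FPKM, and Acss2, which makes acetyl-CoA from acetate, at 92.1, 371 and 119. In each of these 5 genes the knockout library was slightly above vehicle, by less than 1.5-fold, and far below Floxed (T3). Fasn, Elovl6 and Thrsp were closer still to vehicle, with log2 ratios of 0.12, 0.05 and -0.01. The gene of the sugar-sensing factor ChREBP, Mlxipl, was the member furthest below, at 76.2, 111 and 60.7 FPKM. Whether any of these small differences exceeds the spread between animals cannot be known from 1 library a group.

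Other fuel pathways had medians close to 0. Of 22 genes that take up or split glucose 0 were called, and their median was 0.08, against 0.68 in Floxed (T3). Slc2a4, the insulin-responsive glucose transporter, was at 99.6, 169 and 86.3 FPKM, and Hk2, the hexokinase of insulin-sensitive tissue, at 36.5, 52.4 and 25.8. Eno1, an enolase, was at 279 FPKM in vehicle, 576 in Floxed (T3) and 437 in ATRβKO (T3), while its retrocopy Eno1b was at 135, 465 and 0.59. Eno1b had the lowest log2 ratio of all genes followed here, -6.42. Summed, the pair stood at 414, 1041 and 438 FPKM, a log2 ratio of 0.08, so both single values are uncertain because the copies can share reads. Ppp1r3b, which targets a phosphatase to glycogen, was at 13.1, 39.1 and 7.13 FPKM, the lowest ratio of 16 glycogen genes at -0.79. Mpc2, a subunit of the mitochondrial pyruvate carrier, was at 152, 419 and 214 FPKM. Genes of fatty acid uptake and triglyceride assembly had a median of 0.10 with 0 of 23 called and 18 above 0. Angptl4, a secreted inhibitor of lipoprotein lipase, led them at 123, 191 and 204 FPKM. The pentose phosphate, insulin signalling, lipolysis and cholesterol lists had medians of 0.03, 0.07, -0.05 and 0.01, and their only call was Cidea, a member of the lipolysis list.

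Known response genes of thyroid hormone were, by their median, likewise near vehicle. Of 22 at the floor 1, Ucp1, was lower and 0 were higher, with a median of 0.05 against 0.37 in Floxed (T3). Of these, 13 lay above 0 and 9 below, with log2 ratios from -1.64 for Ucp1 to 0.75 for Ccn2. Ccn2, a matricellular protein gene, was at 5.21, 4.68 and 9.42 FPKM. Klf9, a transcription factor gene with a thyroid response element, was at 46.0 FPKM in vehicle, 31.6 in Floxed (T3) and 36.5 in ATRβKO (T3). Hr, a corepressor gene that T3 induces in rodent brain, was at 8.37, 9.05 and 8.49 FPKM. Gpd2, the mitochondrial glycerophosphate dehydrogenase, was at 25.9, 82.4 and 23.8 FPKM. Pck1, which feeds glycerol synthesis in fat, was at 628, 369 and 732 FPKM.

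**Figure D4:**
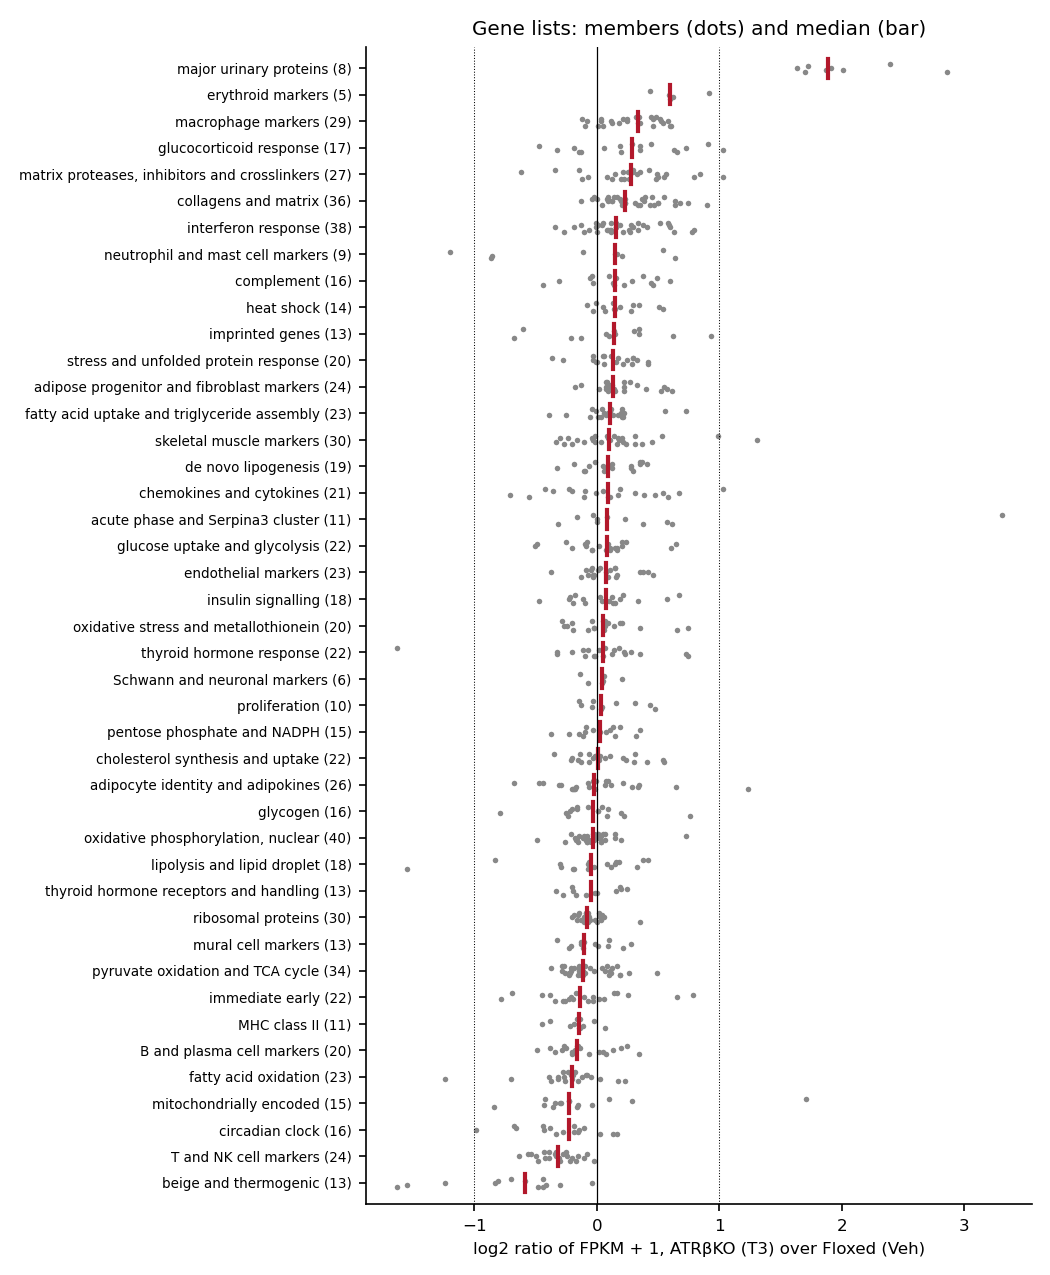
Log2 ratio of FPKM + 1, ATRβKO (T3) over Floxed (Veh) (x axis), of each member at the floor (grey dots) of the gene lists with 5 or more such members (y axis, number in brackets), with the list median as a red bar and 2-fold as dotted lines. Major urinary proteins stand at the top with a median of 1.89 and beige genes at the bottom with -0.59. Lipogenic, glycolytic and nuclear oxidative phosphorylation lists lie near 0, with fatty acid oxidation at -0.21 and mitochondrially encoded genes at -0.23.

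The largest group above vehicle was that of the major urinary proteins, secreted lipocalins that carry pheromones and that liver makes under growth hormone, androgen and thyroid control. The table held 22 Mup genes, of which 13 reached the floor, and these were called higher, where 0.345% of all genes outside the clone-named class were. Mup2, Mup15, Mup3 and Mup17 reached the floor through the knockout library alone, so their direction was fixed by the floor. The other 9 were at 5 FPKM or more in vehicle as well and had a median log2 ratio of 1.85. Of the 9 Mup genes below the floor in both libraries, 6 were higher, 1 was lower and 2 were level, with Mup21 at 0.43 FPKM in vehicle and 0.13 in ATRβKO (T3). They make up 12 of the 15 highest genes and 13 of the 34 called. Summed over the 22 Mup genes the level was 5282 FPKM in Floxed (Veh), 13433 in Floxed (T3) and 19131 in ATRβKO (T3). This was 3.62-fold above vehicle, with Floxed (T3) 2.54-fold above. Their share of all FPKM was 0.702%, 1.70% and 2.56%. The 3 libraries were thus in the same order for the family as a whole, with the knockout library highest.

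The family was dominated by Mup18 (ENSMUSG00000078674), at 3170 FPKM in vehicle, 8327 in Floxed (T3) and 11579 in ATRβKO (T3), and by Mup22, at 1416, 3453 and 5098. Mup10 was at 230, 524 and 761 FPKM, and Mup11 at 83.2, 240 and 442. Among lower members, Mup2 was at 3.78, 9.64 and 33.7 FPKM, which gave the largest ratio of the family, 8.91-fold. Mup15 was at 4.36, 18.2 and 26.6 FPKM. The knockout library was the highest of the 3 in 11 of the 13 genes, and the exceptions were Mup19, at 29.3, 107 and 93.4 FPKM, and Mup3, at 4.09, 26.9 and 19.5. Mup14, Mup9, Mup7, Mup16 and Mup17 were 2.81-fold to 5.27-fold above vehicle, and with a pseudocount of 5 Mup17 was short of 2-fold. Mup14 is named after its value was seen. Mup20, a pheromone of male urine, stayed below the floor at 0.96, 0.33 and 2.96 FPKM.

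Members of the family cannot be treated as separate measurements. Over the 78 pairs of coding transcripts in GENCODE M21 the median identity was 98.6%, ranging from 69.9% to 99.6%, and 12 of the 13 genes had a copy at 98% identity or more. Reads can therefore be divided among copies, and the sum is the more secure value. Mup3 is the exception, with 75.9% identity to its nearest copy, and its value was 4.77-fold above vehicle. It passed the floor through the knockout library alone, so its direction was fixed by the floor. Promoter windows were placed by each annotated start, so a shifted start lowers identity even where sequence is shared. Of 9 other Mup promoter windows compared end to end with that of Mup18, the printed one of Mup15 was the most alike. Identity went down to 81.96% for Mup11, 65.9% for Mup3 and 48.97% for Mup7. The windows of Mup11 and Mup7 hold much of the Mup18 sequence at a shifted place, so these values do not measure how uniform the family is upstream.

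Since these are classic liver transcripts, genes of hepatocytes were looked at after the Mup values were seen. Of 9 hepatocyte genes only Alb, which encodes albumin, reached the floor, at 15.7 FPKM in vehicle, 13.8 in Floxed (T3) and 18.0 in ATRβKO (T3), and 0 were called. The other 8, Ahsg, Apoa1, Apoa2, Apoh, Fga, Fgb, Tat and Ttr, ranged from 0.06 to 4 FPKM over the 3 libraries. Summed, these 9 genes stood at 21.6, 19.4 and 21.9 FPKM, and the source of the Mup transcripts was not tested.

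**Figure D5:**
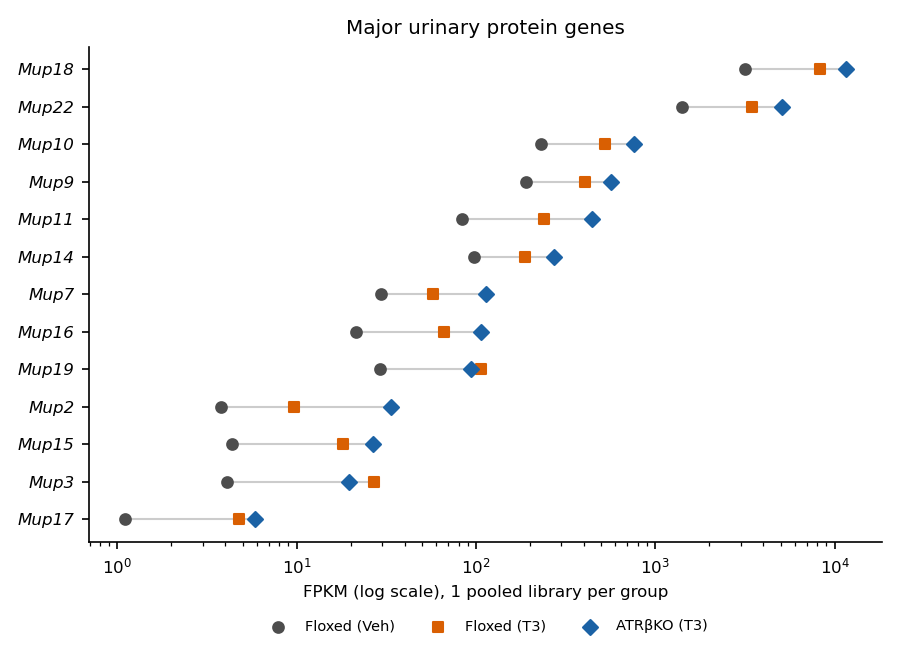
Level in FPKM (x axis, log scale) of the 13 Mup genes at the floor (y axis) in Floxed (Veh), Floxed (T3) and ATRβKO (T3), 1 pooled library each. Vehicle is the lowest point in all 13 genes, and ATRβKO (T3) is the highest in all except Mup19 and Mup3.

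Serpina3k (ENSMUSG00000058207), a secreted serine protease inhibitor of the kallistatin type, had the highest ratio outside the clone-named class. It was at 1.72 FPKM in vehicle, 1.24 in Floxed (T3) and 25.95 in ATRβKO (T3), 15.1-fold above vehicle with a log2 ratio of 3.31, from about 46 and 726 fragments. It was thus high in the knockout library alone of the 3. Its neighbours in the serpin cluster differed less: Serpina3n was at 222, 168 and 340 FPKM, Serpina3c at 61.5, 35.0 and 61.6, and Serpina3g at 19.8, 17.0 and 17.6. Serpins of this cluster resemble each other, and how reads were shared among them was not tested. Of 11 acute phase genes at the floor Serpina3k was the only call, and the median was 0.09. Serpina3k passed the floor through the knockout library alone, so its direction was fixed by it. The other 10 had 0 called and a median of 0.04. Orm1, an acute phase glycoprotein, was at 243, 368 and 363 FPKM, while haptoglobin, Hp, was at 1325, 681 and 1065.

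Glucocorticoid-related genes were, as a list, a little above vehicle. Of 17 at the floor 1 was higher, 0 were lower and 12 lay above 0, with a median of 0.29, while the median in Floxed (T3) was -0.40. Among all genes compared 44.5% lay above 0, and outside the clone-named class 0.345% were called higher. The called gene was Hsd11b1, the enzyme that regenerates active corticosterone inside cells, at 133 FPKM in vehicle, 131 in Floxed (T3) and 273 in ATRβKO (T3). Only the knockout library was high for it, 2.05-fold above vehicle. Ddit4, an inhibitor of mTOR that glucocorticoid induces, was at 40.2, 30.3 and 76.3 FPKM, Dusp1, a phosphatase of MAP kinases, at 29.8, 33.5 and 47.6, and Errfi1 at 27.2, 16.5 and 42.6. Other targets differed less or lay below: Fkbp5 was at 31.2, 20.5 and 35.9 FPKM, Tsc22d3 at 92.8, 44.6 and 119, Zbtb16 at 15.1, 9.02 and 10.6 and Per1 at 28.9, 13.04 and 25.4. Nr3c1, which encodes the receptor, was at 33.8, 25.97 and 30.4 FPKM. Cebpb, a transcription factor of early fat differentiation, was at 7.38, 12.9 and 18.7 FPKM, 2.53-fold above vehicle, and its relative Cebpd was at 9.42, 5.77 and 15.3. With a pseudocount of 5 the Cebpb ratio was short of 2-fold.

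Matrix genes lay mostly above vehicle. Of 36 collagen and matrix genes at the floor 33 had a log2 ratio above 0, with a median of 0.23, and 0 were called. Of the 33 genes at the floor in both libraries 31 lay above 0. Their sum was 5109 FPKM in vehicle, 4165 in Floxed (T3) and 6639 in ATRβKO (T3). Fibrillar collagens were at the upper end: Col1a1 was at 167, 111 and 311 FPKM, Col1a2 at 258, 169 and 433, and Col3a1 at 660, 454 and 1031. Postn, a matrix protein of remodelling tissue, was at 79.3, 67.2 and 128 FPKM, and Fn1, fibronectin, at 162, 101 and 225. In these 5 genes the order was the same, with Floxed (T3) lowest and ATRβKO (T3) highest. The basement membrane genes Nid2 and Lama4 were level with vehicle, at 22.4 and 49.8 FPKM there and 20.3 and 49.9 in ATRβKO (T3).

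Genes that cut, inhibit or crosslink matrix behaved alike, with 22 of 27 above 0 and a median of 0.27. Of these, 2 passed the floor through the knockout library alone, so their direction was fixed by it. Of the other 25 genes 20 lay above 0 and 0 were called. The 1 called higher, Timp1, an inhibitor of metalloproteinases, was among those 2. It was at 2.81, 3.51 and 6.80 FPKM, a low level that stands for about 32 and 82 fragments. Its ratio was short of 2-fold with a pseudocount of 5. Mmp3, a matrix protease, was at 32.2, 27.4 and 56.6 FPKM, and Adam12, a membrane protease of developing fat, at 6.89, 11.2 and 13.2. Mmp12, the macrophage elastase, lay below vehicle at 26.2, 17.7 and 16.7 FPKM. Markers of adipose progenitors and fibroblasts, the usual source of matrix in fat, were above 0 in 22 of 24 with a median of 0.13 and 0 called. Their sum was 7007 FPKM in vehicle, 4724 in Floxed (T3) and 7764 in ATRβKO (T3), and their part in the matrix values was not tested. Sfrp4, a secreted Wnt inhibitor, was at 21.3, 11.7 and 33.2 FPKM, while Pi16, a marker of early progenitors, was at 151, 68.0 and 133.

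Macrophage markers were above vehicle as a list, in 26 of 29 genes with a median of 0.33 and 0 called. The 30 listed genes summed to 4091 FPKM in vehicle, 3029 in Floxed (T3) and 4856 in ATRβKO (T3), and the Kupffer cell gene Clec4f was listed at 0, 0 and 0.02. Adgre1, which encodes the surface marker F4/80, was at 23.3, 20.5 and 36.0 FPKM. C1qc, a complement subunit that macrophages make, was at 172, 130 and 260 FPKM, Folr2, of resident macrophages, at 121, 77.7 and 182, and Trem2, of lipid-associated macrophages, at 20.5, 9.19 and 29.7. Itgax, Spp1 and Cd14 were level with vehicle or slightly below, with log2 ratios of -0.08, -0.10 and -0.12.

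Chemokine genes went both ways, with 12 of 21 above 0 and a median of 0.09, and 1 was called. That was Ccl8, a monocyte chemoattractant of resident macrophages, at 179 FPKM in vehicle, 101 in Floxed (T3) and 366 in ATRβKO (T3), 2.05-fold above vehicle. Ccl6 and Ccl9, chemokines of myeloid cells, were at 142 and 70.8 FPKM in vehicle and 226 and 106 in ATRβKO (T3). Ccl5, which T and NK cells release, was at 251, 108 and 153 FPKM, and Ccl2 at 10.2, 7.07 and 6.60, both below vehicle in the knockout library.

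T and NK cell markers lay below vehicle. The 24 at the floor, 1 of them through vehicle alone, had log2 ratios under 0, with a median of -0.32 and 0 called, and in Floxed (T3) the median was -1.0. The 30 listed genes summed to 655 FPKM in vehicle, 314 in Floxed (T3) and 513 in ATRβKO (T3). Zap70, a kinase of the T cell receptor, was at 11.0, 5.02 and 6.71 FPKM, Cd3g, a chain of its complex, at 44.7, 17.2 and 31.3, and Ccr7, a homing receptor of naive T cells, at 31.6, 13.6 and 21.5. The knockout library was between the other two in each of these 3 genes. B and plasma cell markers had a median of -0.16 with 7 of 20 above 0, but summed to 1674 FPKM in vehicle and 1683 in ATRβKO (T3), and Igha, an antibody heavy chain, was at 35.9, 19.8 and 45.9. MHC class II genes had a median of -0.15 with 1 of 11 above 0. In Floxed (T3) those medians were -0.70 and -0.55. Inguinal fat contains a lymph node, and its share in each pool is not known from the sources used here.

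Interferon response genes were above 0 in 30 of 38, with a median of 0.16 and 0 called. The antiviral sensors Oas2 and Oas1a led, at 10.7 and 9.25 FPKM in vehicle, 8.22 and 9.56 in Floxed (T3) and 19.2 and 16.5 in ATRβKO (T3). Ifi27l2a, by far the most abundant member, was on the other side at 3703, 1052 and 2918 FPKM. The list of neutrophil and mast cell markers had no common direction, with 5 of 9 above 0, a median of 0.15 and a sum of 199.8 FPKM in vehicle and 197 in ATRβKO (T3). Its neutrophil gene Ngp, a granule protein, was called lower at 7.28, 4.53 and 2.60 FPKM, and S100a8 and S100a9, which form calprotectin, were at 23.3 and 36.1 FPKM in vehicle and 12.3 and 19.4 in ATRβKO (T3). Ngp passed the floor through vehicle alone, and its ratio was short of 2-fold with a pseudocount of 5. Mast cell genes in the same list were above vehicle, with Cma1, a chymase, at 20.5, 12.4 and 32.4 FPKM.

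Clock genes lay below vehicle, in 13 of 16 at the floor, with a median of -0.23 and 0 called. Ciart and Bhlhe41 passed the floor through vehicle alone, so their direction was fixed by it. Of the other 14 genes 11 lay below 0, with a median of -0.18. Bhlhe40, a repressor of the clock that also responds to many stimuli, was just outside the size rule at 33.8 FPKM in vehicle, 39.5 in Floxed (T3) and 16.5 in ATRβKO (T3), a log2 ratio of -0.99. Dbp, a clock output gene with a wide daily swing, was at 116, 53.8 and 85.6 FPKM, and Per3 at 26.2, 11.4 and 19.8. Nr1d1, which encodes the repressor REV-ERBα and lies opposite Thra on the genome, was at 102, 89.1 and 80.6 FPKM. The hour at which tissue was taken from each group is not given in the sources used here, and its part in these values was not tested.

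Single genes made up the rest of the calls. Il31ra, a receptor chain for the cytokine IL-31, was at 263 FPKM in vehicle, 519 in Floxed (T3) and 719 in ATRβKO (T3), which was 2.74-fold above vehicle, in the same order as the Mup sum. It is named after its value was seen. Mb, which encodes myoglobin, was called at 9.71, 4.34 and 25.6 FPKM, although the muscle list to which it belongs had a median of 0.10 and Ckm, muscle creatine kinase, was at 319, 58.8 and 271. Ckmt2, a mitochondrial creatine kinase of muscle, was just outside the rule at 7.62, 2.17 and 16.1 FPKM. Of skin genes, Krtdap, a keratinocyte protein, was called lower at 23.0, 7.10 and 5.36 FPKM and Dmkn, dermokine, was called higher at 6.65, 6.48 and 14.5, or short of 2-fold with a pseudocount of 5, so these genes did not move together.

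Below vehicle, Dnah7a, an axonemal dynein, was at 31.7 FPKM in Floxed (Veh), 43.2 in Floxed (T3) and 3.85 in ATRβKO (T3), and adding its close relative Dnah7b left the log2 ratio at -2.64. Bud23, an rRNA methyltransferase, was at 72.9, 28.5 and 25.5 FPKM, so that both T3 libraries were low. H2-Q2, a class Ib MHC gene with near-identical relatives, was at 33.4, 12.6 and 12.1 FPKM, in the same pattern. Snurf, which shares its transcript with Snrpn, was at 15.2, 9.63 and 4.75 FPKM, and the pair summed to 23.3, 22.7 and 13.3. Zfp990, Hoxb5os and Fam228b were each under 1 FPKM in both T3 libraries and at 5.48, 8.60 and 7.19 in vehicle, and Hoxb5os was listed at 0 in ATRβKO (T3). The rest of the 15 lowest were Syt7 at 7.04, 4.95 and 2.28 FPKM and Dmac2l at 12.2, 6.67 and 3.80, both short of 2-fold with a pseudocount of 5. Zfp967, a zinc finger gene with close relatives, was called higher at 4.23, 6.40 and 15.2 FPKM.

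The genes at the edge of the rule were picked by their values. Klhdc1 was just inside on the upper side with a log2 ratio of 1.01, and Ckmt2 just outside with 0.99. On the lower side Sox6os was just inside at -1.02 and Prtn3 just outside at -0.996. The remaining calls, named after their values were seen, were Sgca, Zfp949, Kcnj15, Klhl32, Rprml, Tmem160, Polr2m, Tcf15, Fkbp11 and Ap1ar on the upper side, with log2 ratios from 1.02 to 1.57. On the lower side they were Dleu2, Eps8l1, Pon1, Llgl2, Proser3, Slc15a4, Lipo3, Slc15a2 and Ptp4a1, from -1.20 to -1.05. They belong to none of the lists, and no theme is named for them. By level, the 2-fold calls outside the clone-named class were 3.01% of the 299 genes with a mean of 200 FPKM or more, all of them higher, against 0.412% of genes between 10 and 50 FPKM. The 3.01% stands for 9 genes. They were Mup9, Mup10, Mup11, Mup18 and Mup22, which can share reads, the uncertain mt-Co3, and Il31ra, Ccl8 and Hsd11b1.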

How the data were processed

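Total RNA of inguinal fat was sequenced from Illumina TruSeq libraries with paired reads, per the labels' protocols. Per the submitters' processing notes the authors used HISAT2, StringTie and build GRCm39, without versions. No header names the unit. The deposited values were read as FPKM because they are fractional, sum to 748645 to 787969 per library, and StringTie gives that unit. Depth is not stated and was estimated from single-exon genes of 300 to 1500 bases. FPKM divides by transcript length and library total, so abundant genes lower all others. Strand use in counting is not given in the sources used here. The table of mice on high-fat diet is not used here.

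Log2 ratios used a pseudocount of 1 FPKM, a floor of 5 FPKM in the higher library and a size rule of 2-fold, in Python 3.11.15 with numpy 2.4.6 and pandas 2.3.3. The script was tested on simulated data. Folds are ratios of FPKM without the pseudocount. An entry of 0 may stand for a failed estimate. The members, size rule and 46 lists (1066 entries, 1 not matched) were chosen with earlier results of these data known. Named genes were the hormone receptor genes, the 15 highest and 15 lowest outside the clone-named class, up to 4 members of each list with the largest ratios and 17 genes of adipose metabolism. Other list members that are printed are examples, and any gene named from outside is said to be so. Promoters came from RefSeq and transcripts from GENCODE M21, both on another build than the files, so their coordinates were not joined to them. The alternatives tried were other pseudocounts, floors, scalings and size rules.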

Additional observations from a re-analysis of the deposited data

How the results depend on the processing

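No paired analysis was possible because each group is 1 library and no test was run. The 127 higher and 99 lower genes became 83 and 51 with a pseudocount of 5, 277 and 272 with a floor of 1 FPKM or none, 52 and 31 with a floor of 20, 313 and 255 at 1.5-fold, 59 and 35 at 4-fold, and 34 and 25 without clone-named genes. A pseudocount of 0.1 and 4 rescalings kept both counts within 1.5 times. The largest rescaling shift was -0.03 on the log2 scale. Of 36 called genes that the naming rule took, 28 stayed at 2-fold or more under every pseudocount and rescaling. The other 8, Timp1, Syt7, Ngp, Dmac2l, Cebpb, Dmkn, Cpt1b and Mup17, were below it with a pseudocount of 5. Of 46 list medians 8 changed sign under at least 1 of 12 alternatives: glycogen, lipolysis, cholesterol, adipocyte identity, chemokines, mammary, skin and mesothelial, and proliferation. The size rules of 1.5-fold and 4-fold, counted among these 12, change the calls and cannot move a median. The beige median ran from -0.60 to -0.38 and the Mup median from 1.71 to 2.08. With 1 library a group nothing here measures the spread between mice, and low genes rest on few fragments.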

Other observations

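Erythroid genes were higher together without reaching 2-fold. The 5 at the floor lay above 0, 1 of them, Alas2, having passed it through the knockout library alone, with a median log2 ratio of 0.60, and the 9 measured genes summed to 1427 FPKM in Floxed (Veh), 1913 in Floxed (T3) and 2191 in ATRβKO (T3). The globin genes Hbb-bs and Hba-a2 were at 602 and 560 FPKM in vehicle and 903 and 861 in ATRβKO (T3). The blood left in each pool of fat was not measured, and its part in these values was not tested. Imprinted genes did not share a direction, with 9 of 13 above 0 and a median of 0.14. Mest, a marker of fat expansion, was at 8.32, 15.2 and 16.8 FPKM, the maternal transcripts Rian and Meg3 at 17.2 and 39.96 in vehicle and 27.0 and 49.6 in ATRβKO (T3), and H19 at 14.98, 2.98 and 9.50.

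Chaperone and stress genes were slightly above vehicle, with 14 of 20 unfolded protein response genes above 0 (median 0.14) and 11 of 14 heat shock genes above 0 (median 0.14), and 0 of either list called. Calr and Manf, which work in the endoplasmic reticulum, were at 212 and 57.9 FPKM in vehicle and 267 and 77.7 in ATRβKO (T3). Complement genes had a median of 0.15 with 11 of 16 above 0 and 0 called, while Cfd, the most abundant of them, lay below vehicle. Oxidative stress genes had a median of 0.05, and the glutathione transferase genes Gsta3 and Gsta4 led them at 51.0 and 23.2 FPKM in vehicle and 81.0 and 39.6 in ATRβKO (T3). Endothelial markers had a median of 0.08 (14 of 23 above 0), mural markers -0.10 (5 of 13), immediate early genes -0.13 (7 of 22), ribosomal protein genes -0.08 (6 of 30), proliferation genes 0.04 (6 of 10) and Schwann cell genes 0.04 (4 of 6), with 0 called in each.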
